A study of Homo sapiens with 12 samples.

Results

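The genes described here encode the machinery that shortens the poly(A) tail, removes the cap and degrades the body of messenger RNA. They were chosen by name from a list of 46 genes of the CCR4-NOT, PAN2-PAN3, decapping, LSM, poly(A)-binding, exonuclease and nonsense-mediated decay groups. Of these, 45 were found among the 12756 genes tested, and LSM2 was not analysed here. The study sequenced polyA RNA of HCT116, an established human colorectal carcinoma cell line, in 12 libraries with 3 labelled replicates in each of 4 groups. Cells were harvested 48 hours after seeding. The groups were the parental line, an AGO2 knockout, an ANKRD52 knockout, and a line lacking both ANKRD52 and CSNK1A1, called the double knockout below. AGO2 binds microRNAs and guides silencing of their targets, ANKRD52 is a regulatory subunit of protein phosphatase 6, and CSNK1A1 encodes a casein kinase of the CK1 family. The title places the study in the phosphorylation cycle of Argonaute. The labels do not say whether a knockout line is a clone or a pool, nor whether replicates were separate cultures, so the p-values below reflect variation among the 12 libraries only, and that variation may be technical.

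An Argonaute loaded with a microRNA silences a message largely through this machinery. Its partner TNRC6 recruits the CCR4-NOT and PAN2-PAN3 deadenylases, the helicase DDX6 links deadenylation to decapping, the enzyme DCP2 with its activators removes the cap, and the exonuclease XRN1 degrades the message from its 5′ end. A ring of LSM proteins binds shortened tails and stimulates decapping. Nonsense-mediated decay uses the same enzymes on messages with premature stop codons, marked by the helicase UPF1 and its kinase SMG1.

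Most genes of the machinery were called changed in no knockout, and a few moved. DCP2 was higher in the AGO2 and ANKRD52 knockouts and LSM4 and LSM7 were lower in all 3 knockouts. TOB1, which recruits deadenylases, was 1.99-fold higher in the double knockout (approximate 95% interval of the log2 fold change 0.74 to 1.25), and the nonsense-mediated decay kinase SMG1 was 1.52-fold higher there. A gene was called changed where the Benjamini-Hochberg value of the edgeR likelihood ratio test, as the authors' deposited table gives it, was under 0.05. In the AGO2 knockout 4 of 45 members were called (8.89%, beside 6.10% of all genes tested), 2 of them higher (3.38% of all genes) and 2 lower (2.72% of all genes). In the ANKRD52 knockout 3 were called (6.67%, beside 13.7% of all genes), 1 higher (7.62% of all genes) and 2 lower (6.04% of all genes). In the double knockout 14 were called (31.1%, beside 43.0% of all genes), 5 higher (22.9% of all genes) and 9 lower (20.1% of all genes). The counts in the ANKRD52 and double knockouts were thus under the share of all genes. The 3 comparisons share the parental libraries.

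**Figure D1:**
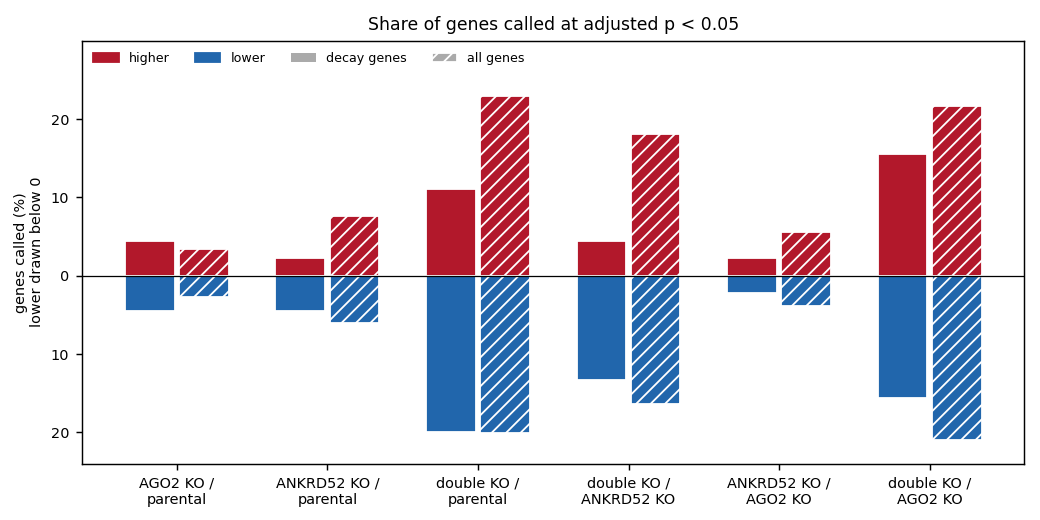
Percent of genes called higher (above 0) and lower (below 0) at an adjusted p under 0.05 in each comparison. Bars are drawn for the 45 members and for all genes tested. In the double knockout 31.1% of members were called, beside 43.0% of all genes.

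The calls of members in the AGO2 and ANKRD52 knockouts rest on the chi-square reference of the deposited edgeR test. With an F distribution of 1 and 8 degrees of freedom applied to the same likelihood ratios, 0 members remained called in either, with 7 and 6 at an unadjusted p under 0.05 (15.6% and 13.3%, beside 14.4% and 19.4% of all genes) and a smallest adjusted p of 0.259 and 0.0679. Over all genes 0 and 3 were called, so the loss of calls under this reference was not particular to the members. The calls lost in this way were those of DCP2, TOB1, LSM4 and LSM7. Of the members called in the double knockout, 9 remained, among them TOB1, SMG1, LSM4, LSM6 and LSM7. With a t distribution of 8 degrees of freedom, TOB1, SMG1, DCP2 and XRN1 were still called between the double and ANKRD52 knockouts.

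Across the machinery 30 members were called in no comparison with the parental line, 11 in 1, 2 in 2, and 2 in all 3. The same tally was not made over all genes, of which 43.0% were called in the double knockout alone, beside 31.1% of members. The members' median log2 fold changes were -0.02, -0.03 and -0.03 in the AGO2, ANKRD52 and double knockouts, and the medians over all genes were 0.00, 0.00 and 0.01. The 95% interval of the log2 fold change, built from an approximate standard error (SE), lay wholly within ±0.5 (1.41-fold) for 37, 40 and 36 of the 45 members. That was 82.2%, 88.9% and 80.0% of members. Among the 7749 genes at or above the lowest member's level the shares were 76.3%, 73.8% and 54.5%. For these members a change beyond 1.41-fold lay outside the interval. Of those within ±0.5, 0, 0 and 6 were called, the 6 being CNOT10, CNOT8, PARN, EDC4, LSM14A and SMG6 in the double knockout. Members were well expressed, with a median of mean log2 CPM (counts scaled to library size) of 6.61 beside 5.08 for all genes, and 42 of 45 lay above that median.

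**Figure D2:**
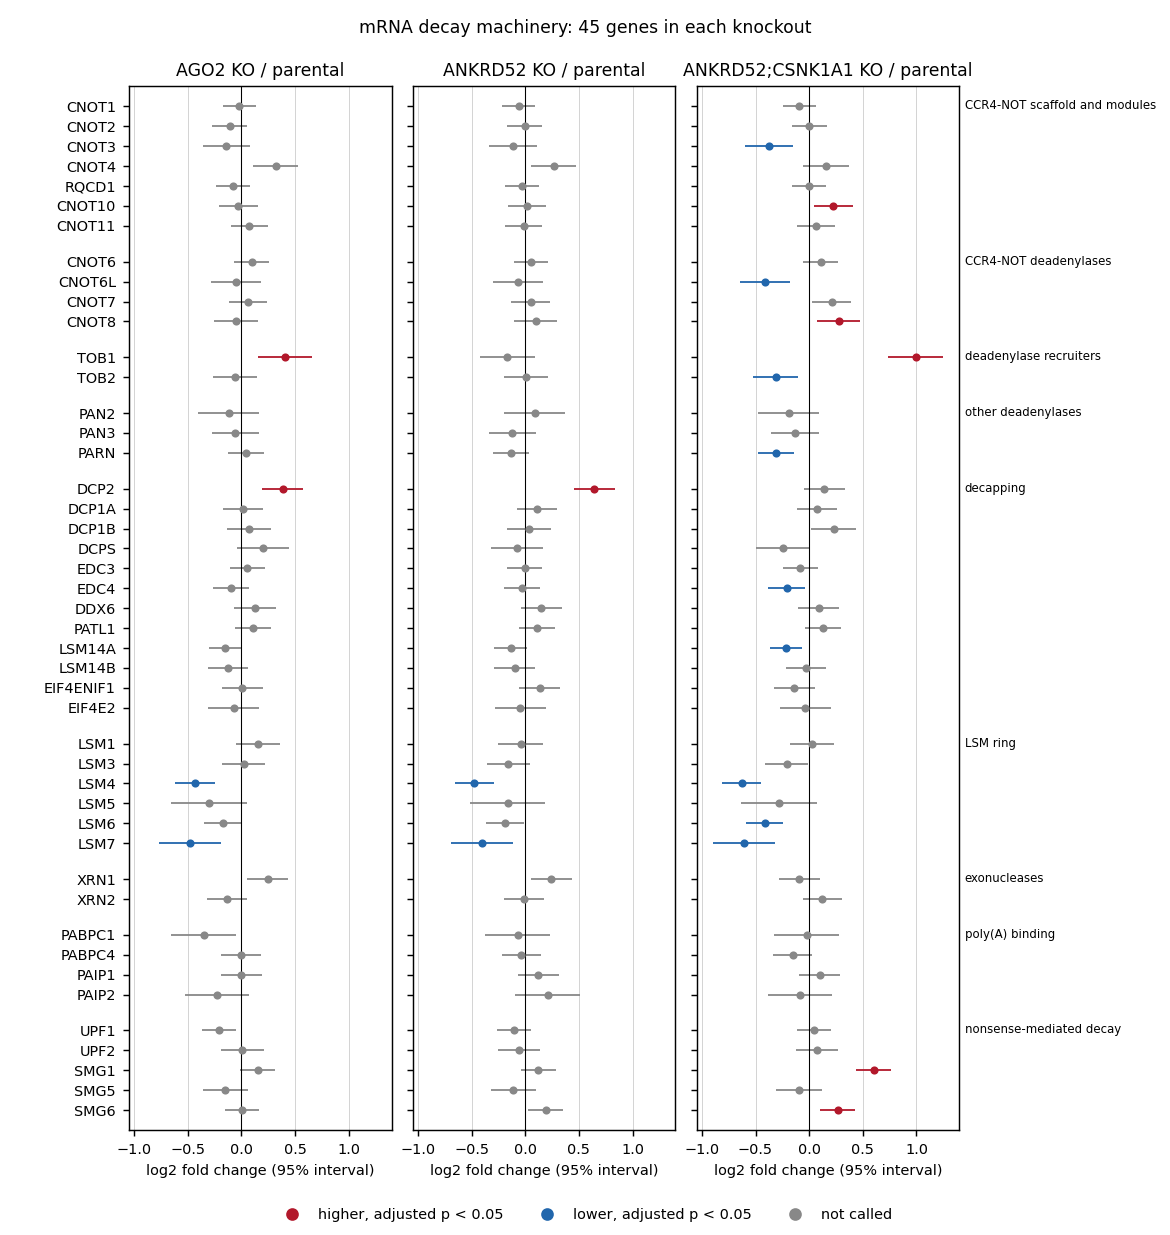
Log2 fold change of each of the 45 members against the parental line in the 3 knockouts, grouped by role, with approximate 95% intervals as bars. Red points were called higher and blue points lower at an adjusted p under 0.05; most points lie within 0.5 of 0, and TOB1 in the double knockout is the farthest to the right at 0.99.

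The targeted genes checked the labels in part. In the authors' deposited table AGO2 had a log2 fold change of -1.07 in its own knockout and CSNK1A1 of -2.42 in the double knockout. ANKRD52 was at 0.03 in its own knockout (edgeR adjusted p = 0.915 in the authors' deposited table) and at -0.65 in the double, so its RNA does not check the label of the ANKRD52 knockout. Epithelial markers of the line were present, with implied parental levels of 349 CPM for EPCAM, 114 CPM for CDH1 and 1530 CPM for KRT8. VIL1 was near 0 in the parental line (0.0485 CPM). In the ANKRD52 knockout EPCAM was at 199 CPM and CDH1 at 45.4 CPM, both called lower (log2 fold changes of -0.81 and -1.33, edgeR adjusted p = 0.000545 and 0.0195, from the authors' deposited table). The summed level of the 7 epithelial markers, most of it from the keratins KRT8, KRT18 and KRT19, was 3316 CPM in parental cells, 3421 in the AGO2 knockout, 3182 in the ANKRD52 line and 8697 in the double. Among markers of other cells, 1 of 5 fibroblast, 2 of 4 immune and 1 of 3 endothelial genes were in the tables, with summed levels over the groups of 11.9 to 14.1, 2.65 to 9.70 and 0.526 to 2.53 CPM. The highest sums of all 4 lists were in the double knockout, but the immune genes went opposite ways there, LYZ from 0.0788 to 8.63 CPM and CD68 from 4.18 to 1.07 CPM. The part of these markers in the member results was not tested. In bulk RNA, fewer cells with a message and less message per cell cannot be told apart.

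Few genes of the CCR4-NOT scaffold and its modules were called. CNOT1, the scaffold that holds the complex together, had implied levels of 593, 584, 568 and 556 CPM in the parental, AGO2, ANKRD52 and double knockout groups. An implied level is the group's CPM computed from the deposited mean CPM and the 3 fold changes, 1 value per group, so the spread between libraries is not shown. The 95% interval of CNOT1's log2 fold change in the double knockout ran from -0.25 to 0.06. None of the 7 scaffold and module genes was called in the AGO2 or ANKRD52 knockout, beside 6.10% and 13.7% of all genes. In each, 1 of the 7 had an unadjusted edgeR p under 0.05, beside 2735 and 3366 of the 12756 genes. That gene was CNOT4, an E3 ubiquitin ligase associated with the complex, at 53.8, 67.1, 64.6 and 59.9 CPM, with a log2 fold change of 0.32 (edgeR adjusted p = 0.051 in the authors' deposited table) in the AGO2 knockout. Of the 7, 2 were called in the double knockout (28.6%, beside 43.0% of all genes). CNOT3, a subunit of the NOT module, fell by 0.38 (edgeR adjusted p = 0.00341 in the authors' deposited table), and CNOT10, which pairs with CNOT11, rose by 0.22 (adjusted p = 0.0367). CNOT2, RQCD1 (CNOT9) and CNOT11 had log2 fold changes between -0.11 and 0.08 in the 3 comparisons.

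The catalytic deadenylases of the complex come as paralog pairs, and a complex holds a member of each pair. CNOT6 stood at 172, 183, 178 and 185 CPM over the 4 groups in the order above, and was called in no comparison. Its paralog CNOT6L was at 40.0, 38.6, 38.2 and 30.1 CPM, lowest in the double knockout. The authors' deposited table gave CNOT6L a log2 fold change of -0.41 there (approximate SE 0.120, edgeR adjusted p = 0.00237). CNOT8 rose by 0.27 on the log2 scale in the double knockout (edgeR adjusted p = 0.0217 in the authors' deposited table). Its paralog CNOT7 was at 0.21 with an adjusted p of 0.0524 (edgeR, the authors' deposited table). In the AGO2 and ANKRD52 knockouts 0 of the 4 catalytic genes were called by edgeR, with 0 at an unadjusted p under 0.05 in each. Of all 12756 genes 6.10% and 13.7% were called there, and 2735 and 3366 had such an unadjusted p.

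TOB1 and TOB2 are antiproliferative proteins that bridge CCR4-NOT to poly(A)-binding protein, and their RNAs gave different values. TOB1 was at 106 CPM in parental cells, 141 in the AGO2 knockout, 94.6 in the ANKRD52 line and 211 in the double. The double knockout stood highest, and the ANKRD52 knockout was the lowest of the groups. Its log2 fold changes in the authors' deposited table were 0.41 (approximate SE 0.130, edgeR adjusted p = 0.0352) in the AGO2 knockout and 0.99 (SE 0.131, adjusted p = 8.43e-13) in the double knockout. TOB1 was at -0.17 in the ANKRD52 knockout, with an adjusted p of 0.441 (edgeR, the authors' deposited table). TOB2 was at 137, 131, 137 and 110 CPM, and fell by 0.31 in the double knockout (edgeR adjusted p = 0.00918 in the authors' deposited table). Exons of TOB1 overlap those of an antisense gene, TOB1-AS1. Whether reads were counted by strand is not given in the sources used here, although the library kit was stranded.

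Of the other deadenylases, PARN, which trims poly(A) tails of small RNAs and some messages, was at 99.7, 103, 91.1 and 80.5 CPM. In log2 terms PARN fell by 0.31 with loss of both genes (edgeR adjusted p = 0.00157 in the authors' deposited table). PAN2 and PAN3, the nuclease and adaptor of the complex that starts to shorten long tails, were called in no comparison with the parental line. Their log2 fold changes lay between -0.19 and 0.09, and PAN2 was the member with the lowest mean log2 CPM, 4.45.

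DCP2, the enzyme that removes the cap, was the member with the clearest rise in the ANKRD52 knockout. Its implied levels were 93.7 CPM in parental cells, 122 in the AGO2 knockout, 146 in the ANKRD52 line and 103 in the double. The authors' deposited tables gave log2 fold changes of 0.39 (approximate SE 0.098, edgeR adjusted p = 0.00555) and 0.64 (SE 0.098, adjusted p = 2.22e-08) in the AGO2 and ANKRD52 knockouts, 1.31-fold and 1.56-fold. It was at 0.14 in the double knockout, with an adjusted p of 0.249 (edgeR, the authors' deposited table). The double knockout lay 0.50 below the ANKRD52 knockout on the log2 scale (95% interval of the difference -0.69 to -0.31, adjusted p = 3.39e-06, approximate normal test). The difference between the ANKRD52 and AGO2 knockouts was 0.26 with an adjusted p of 0.0738 in the same approximate test.

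The DCP2 message also has the longest annotated 3′ UTR of the members. In the GENCODE release 29 transcript used for GRCh38, where DCP2 lies on the + strand of chromosome 5, it spans 7486 bases, longer than in 97.5% of the 11786 genes with a 3′ UTR of at least 50 bases. The median was 1230 bases over all 45 members, which include CNOT4 and PAN3 with 0 and 17 bases, and 1176.5 over those 11786 genes. It was searched for 7-base matches to the seeds, bases 2 to 8, of 18 mature microRNAs named for this work without expression data for these cells, with sequences from RefSeq (GRCh38.p14). DCP2 held 18 matches, the most of any member, to 9 of the 18 microRNAs. Per kilobase of 3′ UTR that was 2.40, not the highest among members, beside 6.13 for LSM7, 3.96 for TOB1 and 1.99 for CNOT6L. The microRNAs below are shown because their matches were counted in DCP2, with the seed in capitals. miR-200b and miR-141 belong to a family abundant in epithelial cells and have different seeds, and miR-19b comes from another cluster.
hsa-miR-200b-3p: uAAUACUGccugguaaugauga
hsa-miR-141-3p: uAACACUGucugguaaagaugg
hsa-miR-19b-3p: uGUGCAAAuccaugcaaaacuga
The stretches of the DCP2 3′ UTR that hold their matches are shown 5′ to 3′ in the letters of the + strand, with the match in capitals.
DCP2 match to miR-200b-3p at chr5:113014359-113014380: ttacgttgcatctcCAGTATTg
DCP2 match to miR-200b-3p at chr5:113017142-113017163: tatattttccgaggCAGTATTt
DCP2 match to miR-141-3p at chr5:113013678-113013699: cagatttaccttttCAGTGTTc
DCP2 match to miR-141-3p at chr5:113015786-113015807: gggtaatagtttctCAGTGTTc
DCP2 match to miR-141-3p at chr5:113018999-113019020: tagagtgaaatgggCAGTGTTc
DCP2 match to miR-141-3p at chr5:113020569-113020590: ctgtttttttccctCAGTGTTa
DCP2 match to miR-19b-3p at chr5:113013631-113013652: gaaagaaacacgagTTTGCACt
The message of DCP2 thus held CAGTATT at 2 places, CAGTGTT at 4 and TTTGCAC at 1. Such a match is a description of the sequence, and these files hold no measure of binding.

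The shares of members with these matches lay on both sides of those of all genes. CAGTATT was found in 23.3% of the 43 members and 18.3% of the 11786 genes, CAGTGTT in 11.6% and 19.9%, and TTTGCAC in 16.3% and 14.8%. Among the microRNAs not shown, miR-29a-3p had a match in 27.9% and 15.8%, and let-7a-5p in 4.65% and 10.4%. The next members by number of matches gave other values. CNOT6L, with a 3′ UTR of 7044 bases and 14 matches, had log2 fold changes of -0.05, -0.07 and -0.41 in the authors' deposited tables for the AGO2, ANKRD52 and double knockouts. CNOT6, with 4205 bases and 12 matches, was at 0.10, 0.05 and 0.11 in the authors' deposited tables. TOB1 has a 3′ UTR of 757 bases, and its 3 matches include the same CAGTATT. It is shown on the - strand, with the match in capitals.
TOB1 match to miR-200b-3p at chr17:50862748-50862769: gatatggcctcttaCAGTATTt
With this match TOB1 was at 0.41, -0.17 and 0.99 in the AGO2, ANKRD52 and double knockouts (the authors' deposited tables). DCP2, with 2 such matches, was at 0.39, 0.64 and 0.14 in the same order. Of the 10 members with this match, RQCD1, CNOT6, CNOT6L and CNOT7 also held 2 each. In that order they were at -0.08, 0.10, -0.05 and 0.06 in the AGO2 knockout. In the ANKRD52 knockout they were at -0.03, 0.05, -0.07 and 0.05, and none of them was called in either. A link between matches and these values was not tested. Across the 43 members the rank correlation of 3′ UTR length with log2 fold change was 0.218, 0.235 and 0.0980 in the AGO2, ANKRD52 and double knockouts, and over the 11786 genes it was 0.142, 0.223 and 0.187. For the length of the whole transcript it was 0.260, 0.429 and 0.186 in the members, and 0.0947, 0.243 and 0.195 over those genes. For the GC percent of the 3′ UTR it was -0.276, -0.254 and -0.410 in the members, and -0.270, -0.156 and -0.0985 over those genes. Values for 3′ UTR length were thus not the largest in the members. The points share the libraries, so these are descriptions only.

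**Figure D3:**
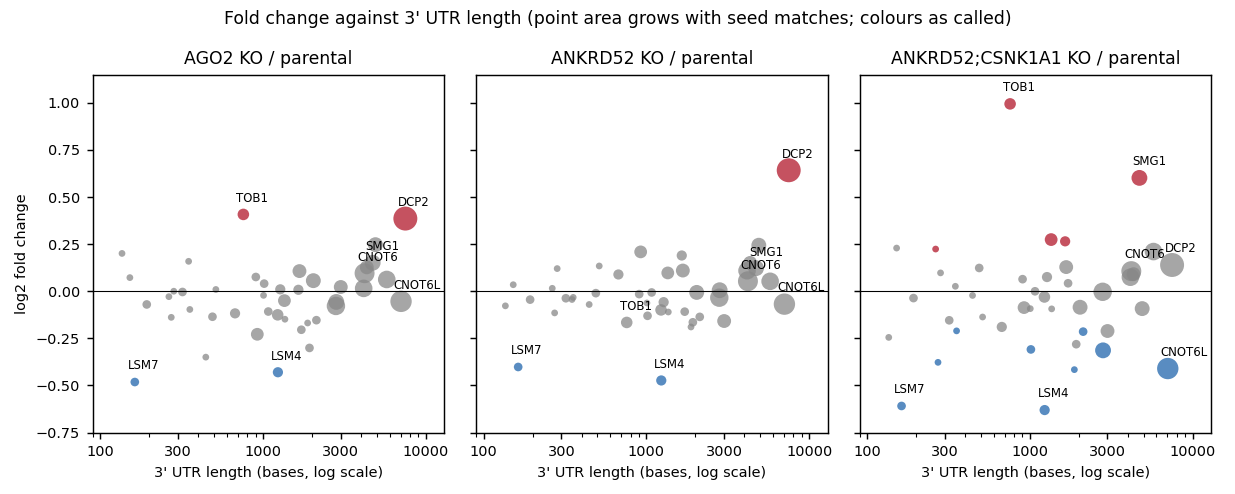
Log2 fold change against annotated 3′ UTR length (bases, log scale) for the 43 members with a 3′ UTR of at least 50 bases, in the 3 knockouts; larger points have more seed matches and colours mark members called higher (red) or lower (blue). DCP2, with 7486 bases, is the highest point in the ANKRD52 knockout, while CNOT6L, with 7044 bases, lies below 0 in all 3.

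The partners of DCP2 were not called in the 2 knockouts where it was. DCP1A and DCP1B, its cofactors, had log2 fold changes of 0.02 and 0.07 in the AGO2 knockout and 0.11 and 0.03 in the ANKRD52 knockout (the authors' deposited tables), with none called. DDX6, the helicase that joins CCR4-NOT to decapping, was at 489, 534, 542 and 520 CPM. Its 95% intervals of the log2 fold change were -0.07 to 0.32, -0.04 to 0.34 and -0.10 to 0.28 in the AGO2, ANKRD52 and double knockouts. PATL1, a scaffold for decapping factors, was at 0.11, 0.11 and 0.13 in the authors' deposited tables and was called in none. Of the 12 decapping genes, DCP2 was the only member called in the AGO2 or ANKRD52 knockout (8.33% in each, beside 6.10% and 13.7% of all genes). EDC4, a scaffold of the decapping complex, and LSM14A, an RNA-binding protein of processing bodies, each fell by 0.21 in the double knockout (edgeR adjusted p = 0.0369 and 0.0158, from the authors' deposited table). LSM14B, the paralog of LSM14A, was at -0.03 there in the authors' deposited table. EDC3, an enhancer of decapping, and EIF4E2, a cap-binding repressor of translation, had log2 fold changes between -0.09 and 0.06 in the authors' deposited tables, with none called. DCPS was at 0.20, -0.08 and -0.25 and EIF4ENIF1 at 0.01, 0.13 and -0.14 in the AGO2, ANKRD52 and double knockouts, not called (the authors' deposited tables).

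The LSM ring was the group with members lower in all 3 knockouts. LSM4 was at 233 CPM in parental cells, 173 in the AGO2 knockout, 168 in the ANKRD52 line and 151 in the double. Its log2 fold changes in the authors' deposited tables were -0.43, -0.47 and -0.63 (approximate SE 0.094 in the AGO2 knockout, edgeR adjusted p = 0.000769, 4.07e-05 and 5.31e-10). LSM7 was at 39.6, 28.4, 29.97 and 26.0 CPM, so that all 3 knockouts again stood below the parental level. The authors' deposited tables gave LSM7 log2 fold changes of -0.48, -0.40 and -0.61 (SE 0.148 in the AGO2 knockout, edgeR adjusted p = 0.0277, 0.048 and 0.000237). Since the 3 comparisons use the same parental libraries, a high parental level would enter all of them. Between the knockouts neither gene was called, with 95% intervals of the log2 difference between the double and ANKRD52 knockouts of -0.34 to 0.03 for LSM4 and -0.50 to 0.08 for LSM7.

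The rest of the ring was less uniform. LSM6 was at 72.9, 64.8, 63.9 and 54.6 CPM, and fell by 0.42 in the double knockout (edgeR adjusted p = 2.9e-05 in the authors' deposited table), with log2 fold changes of -0.17 and -0.19 that were not called in the AGO2 and ANKRD52 knockouts. LSM5 had values of -0.30, -0.16 and -0.28 with the wide approximate SE of 0.179, and was not called (the authors' deposited tables). LSM1, which sets the cytoplasmic decay ring apart from the nuclear ring that binds U6 RNA, was at 0.16, -0.04 and 0.03 in the authors' deposited tables and was called in none. LSM3, a ring subunit shared by both, was at 0.02, -0.16 and -0.21 and was called in none (the authors' deposited tables). LSM4, LSM5, LSM6 and LSM7 are likewise shared by both rings. Of the 6 ring genes 2, 2 and 3 were called, all lower (33.3%, 33.3% and 50%, beside 2.72%, 6.04% and 20.1% of all genes called lower). The list's median log2 fold change was -0.23, -0.18 and -0.35 in the AGO2, ANKRD52 and double knockouts.

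LSM4 and LSM7 lie on the - strand of chromosome 19 and are not neighbours. Their promoters are shown because the pair moved together in these comparisons, from 250 bases before to 50 after the gene's start, 5′ to 3′ on the - strand, from RefSeq (GRCh38.p14). Capitals mark the GC box, GGGCGG, or CCGCCC where it lies on the other strand, and runs of capitals longer than 6 letters are overlapping matches.
LSM4 promoter at chr19:18323027-18323326: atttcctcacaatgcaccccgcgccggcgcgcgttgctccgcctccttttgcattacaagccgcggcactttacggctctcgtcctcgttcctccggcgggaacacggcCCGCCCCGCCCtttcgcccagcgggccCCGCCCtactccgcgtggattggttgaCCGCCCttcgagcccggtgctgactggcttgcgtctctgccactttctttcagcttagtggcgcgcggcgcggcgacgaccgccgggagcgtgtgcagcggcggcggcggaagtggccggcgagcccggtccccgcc
LSM7 promoter at chr19:2328537-2328836: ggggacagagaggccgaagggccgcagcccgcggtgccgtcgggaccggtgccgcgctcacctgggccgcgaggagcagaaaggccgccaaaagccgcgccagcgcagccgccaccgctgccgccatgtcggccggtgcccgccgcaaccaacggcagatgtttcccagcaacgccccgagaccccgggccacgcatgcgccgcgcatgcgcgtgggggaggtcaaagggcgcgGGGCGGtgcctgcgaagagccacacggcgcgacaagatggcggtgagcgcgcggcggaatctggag
The window of LSM4 was 70.7% G and C with 4 GC boxes, and that of LSM7 was 74.3% with 1. A GC box was found in 76.3% of the 38 members with a promoter in the table and in 71.6% of 10148 genes, so it does not set the pair apart. Exons of LSM7 overlap those of SPPL2B on the other strand, and reads of such a pair can be told apart only where strand was used in counting. LSM7 has a 3′ UTR of 163 bases with 1 seed match, and 93.7% of genes have a longer one. That of LSM4 has 1234 bases with 2 seed matches, and 48.5% of genes have a longer one.

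**Figure D4:**
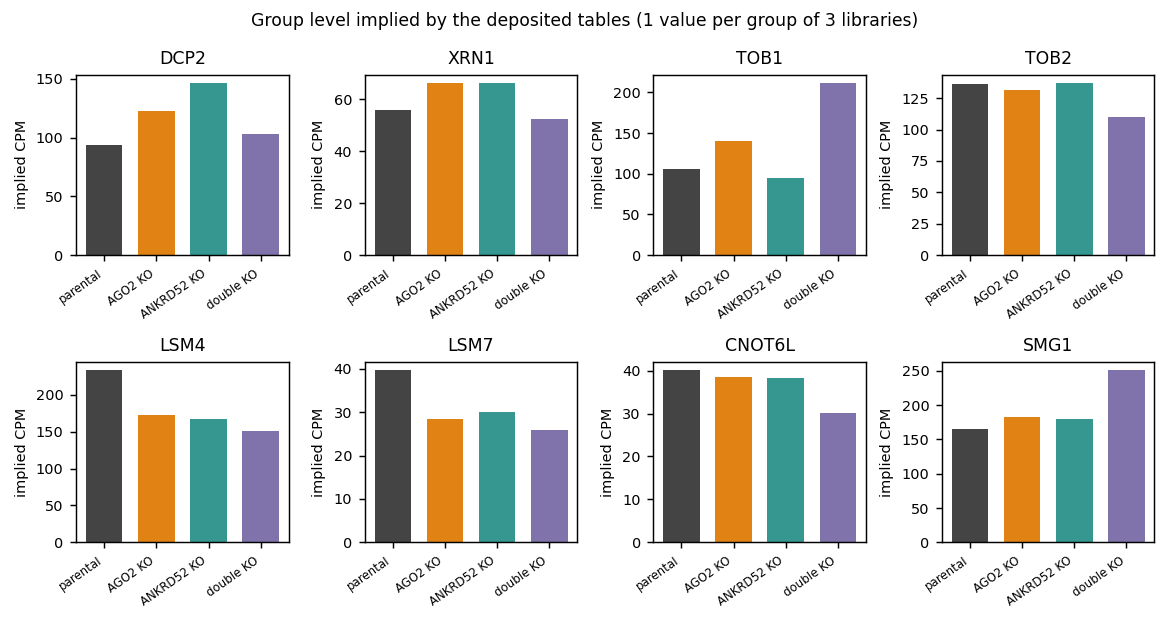
Implied level in CPM, 1 bar per group, for DCP2, XRN1, TOB1, TOB2, LSM4, LSM7, CNOT6L and SMG1, with axes from 0 and no error bars because the tables hold no value per library. DCP2 is highest in the ANKRD52 knockout at 146 CPM, TOB1 and SMG1 in the double knockout at 211 and 251 CPM, and LSM4 and LSM7 in parental cells.

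XRN1, the cytoplasmic exonuclease that degrades decapped messages, was at 55.7, 66.1, 66.0 and 52.3 CPM. Its log2 fold changes of 0.25 and 0.24 in the AGO2 and ANKRD52 knockouts were not called (edgeR adjusted p = 0.106 and 0.0745, from the authors' deposited tables). It was at -0.09 in the double knockout, with an adjusted p of 0.463 (edgeR, the authors' deposited table). XRN2, the nuclear exonuclease that acts in transcription termination, was at 192, 175, 190 and 209 CPM and was not called against the parental line.

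The poly(A)-binding proteins and their regulators gave no call against the parental line in any knockout. PABPC1, the main cytoplasmic poly(A)-binding protein, had the highest mean log2 CPM of the members, 11.78. It was at 3793, 2976, 3612 and 3734 CPM, lowest in the AGO2 knockout, where its log2 fold change of -0.35 had an approximate SE of 0.154 and an edgeR adjusted p of 0.155 (the authors' deposited table). Its paralog PABPC4 was at 435, 434, 424 and 391 CPM. PAIP2, which pulls PABPC1 off the tail, was at 222, 189, 256 and 209 CPM, and PAIP1, which joins PABPC1 to translation factors, was at 0.00, 0.12 and 0.10 on the log2 scale (the authors' deposited tables). By edgeR 0 of these 4 genes were called in each of the 3 comparisons, with 1, 0 and 0 at an unadjusted p under 0.05. Of all 12756 genes 6.10%, 13.7% and 43.0% were called, and 2735, 3366 and 6358 had such an unadjusted p. PABPC1 has 13 pseudogenes named after it in GENCODE, so its reads may be split or lost in counting.

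Of the 5 nonsense-mediated decay genes, 2 were called, both higher and both in the double knockout (40.0%, beside 22.9% of all genes called higher and 43.0% called in either direction). SMG1 was at 165 CPM in parental cells, 183 and 180 in the AGO2 and ANKRD52 knockouts and 251 in the double knockout. The authors' deposited table gave it a log2 fold change of 0.60 in the double knockout (approximate SE 0.084, edgeR adjusted p = 1.75e-11), beside 0.15 and 0.12, not called, in the others. SMG6, the endonuclease of the pathway, was at 57.9, 58.2, 66.1 and 69.6 CPM, and rose by 0.26 in the double knockout (edgeR adjusted p = 0.00455 in the authors' deposited table). UPF1, UPF2 and SMG5 were not called against the parental line, and UPF1 stood at 180, 156, 167 and 185 CPM. UPF2, a UPF1 cofactor, was at 0.01, -0.06 and 0.08 on the log2 scale and SMG5, an adaptor that binds phosphorylated UPF1, at -0.15, -0.11 and -0.09 (the authors' deposited tables). SMG1 has 7 named pseudogenes in GENCODE, near copies of part of the gene, so its value is uncertain to the extent that reads were split among them. Such limits are not particular to the genes for which they are given here. Of the 45 members, 12 have at least 1 named pseudogene and 22 have an exon overlapping an antisense gene.

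Because the knockouts share their control, they were also compared with each other by the difference of their log2 fold changes, an approximate test over 11876 genes. Between the double and the ANKRD52 knockout, which differ in the labels by CSNK1A1, 8 members were called (17.8%, beside 34.5% of all genes), 2 higher in the double (18.1% of all genes) and 6 lower (16.3% of all genes). TOB1 was higher by 1.16 on the log2 scale (95% interval 0.90 to 1.42, adjusted p = 3.43e-17, normal test) and SMG1 by 0.48 (adjusted p = 1.64e-07). Lower in the double were DCP2, XRN1 by a difference of -0.34 (adjusted p = 0.00291), CNOT6L at -0.34 (adjusted p = 0.0155) and TOB2 at -0.32 (adjusted p = 0.00986). The other two were LSM6 at -0.23 (adjusted p = 0.0367) and EIF4ENIF1, which holds the cap-binding protein eIF4E in processing bodies, at -0.27 (adjusted p = 0.0182). The decapping enzyme and the exonuclease that follows it were thus both lower in the double than in the ANKRD52 knockout.

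Between the ANKRD52 and AGO2 knockouts 2 members were called (4.44%, beside 9.43% of all genes), 1 higher in the ANKRD52 knockout (5.52% of all genes) and 1 lower (3.91% of all genes). PAIP2 was higher by 0.44 (adjusted p = 0.047, approximate normal test) and TOB1 was lower, with a difference of -0.57 (adjusted p = 0.000659). For XRN1 the 95% interval of this difference was -0.19 to 0.19. Between the double and AGO2 knockouts 14 were called (31.1%, beside 42.6% of all genes), 7 higher in the double (21.6% of all genes) and 7 lower (21.0% of all genes). The higher genes were TOB1 (0.59), SMG1 (0.45), CNOT8 (0.32), SMG6 (0.26), XRN2 (0.26), CNOT10 (0.25) and UPF1 (0.25), as log2 differences. The lower genes were DCPS, the scavenger enzyme that hydrolyses freed caps (-0.45), CNOT6L (-0.36), PARN (-0.35), XRN1 (-0.34), TOB2 (-0.26), DCP2 (-0.25) and LSM6 (-0.25).

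**Figure D5:**
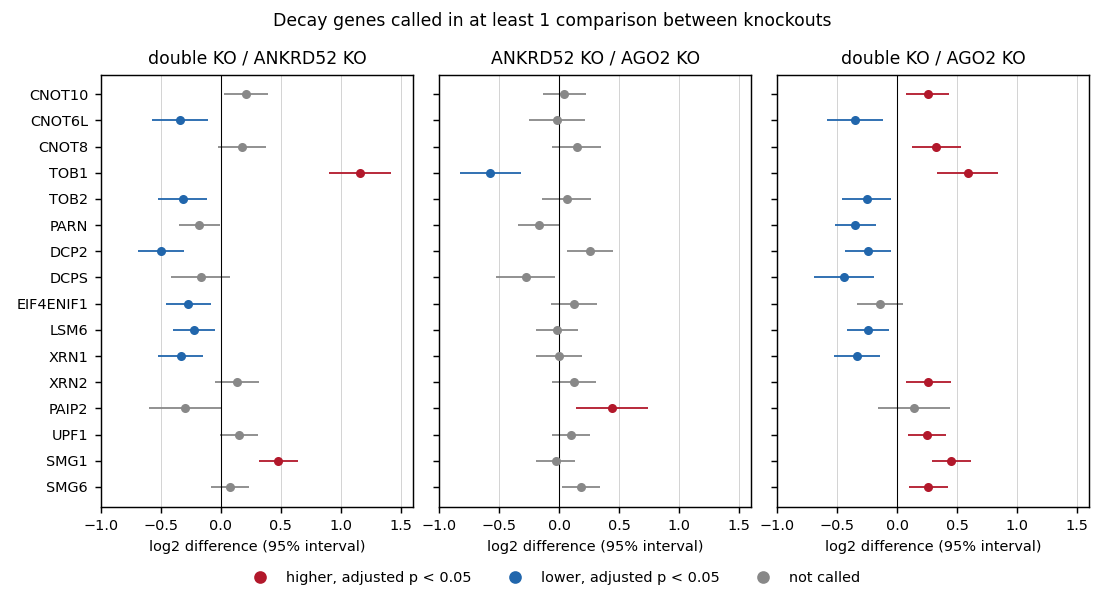
Log2 difference between knockouts, with approximate 95% intervals, for the 16 members called in at least 1 of the 3 comparisons between knockouts. TOB1 differs in all 3, by 1.16, -0.57 and 0.59, while DCP2 and XRN1 lie below 0 in both comparisons with the double knockout.

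The 8 paralog pairs are set side by side for the double knockout. In the authors' deposited table its log2 fold changes were 0.99 for TOB1 and -0.31 for TOB2, and 0.11 for CNOT6 and -0.41 for CNOT6L. CNOT7 and CNOT8 were at 0.21 and 0.27, LSM14A and LSM14B at -0.21 and -0.03, and DCP1A and DCP1B at 0.07 and 0.23 (the authors' deposited table). PABPC1 and PABPC4 were at -0.02 and -0.15, PAIP1 and PAIP2 at 0.10 and -0.09, and XRN1 and XRN2 at -0.09 and 0.12 (the authors' deposited table). Differences within a pair were not tested. Per kilobase of the GENCODE transcript, PABPC1 led the members in parental cells at 1088 CPM per kb, followed by PABPC4 at 143, LSM4 at 122, PAIP2 at 96.5 and DDX6 at 79.5. The lowest were CNOT6L at 4.5, PAN2 at 4.9 and XRN1 at 5.5, with DCP2 at 10.5, SMG1 at 10.2 and a median of 29.9 CPM per kb. These levels depend on the transcript chosen for each gene, and no spread between libraries can be given.

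A further 46 decay genes outside the machinery above were read beside it, of which 43 were in the tables. In the AGO2 knockout 4 were called higher and 1 lower, in the ANKRD52 knockout 1 and 3, and in the double knockout 8 and 13 (11.6%, 9.30% and 48.8%, beside 6.10%, 13.7% and 43.0% of all genes), with median log2 fold changes of 0.04, -0.07 and -0.06. In the AGO2 knockout BTG2 and BTG3, antiproliferative relatives of TOB1, rose by 0.79 and 0.37 on the log2 scale (edgeR adjusted p = 1.3e-05 and 0.0107, from the authors' deposited table). They rose by 0.82 and 0.58 in the double knockout (edgeR adjusted p = 1.15e-07 and 7.54e-08, from the authors' deposited table). Their relative BTG1 was at -0.20 in the AGO2 knockout, not called (adjusted p = 0.613), and rose by 0.94 in the double (adjusted p = 3.54e-05, edgeR, the authors' deposited table). DIS3, a nuclease of the exosome, rose by 0.29 in the AGO2 knockout (edgeR adjusted p = 0.0283 in the authors' deposited table). DIS3 was at 0.01 in the ANKRD52 knockout, not called, and rose by 0.43 in the double (edgeR adjusted p = 1.07e-05 in the authors' deposited table). In the ANKRD52 knockout the deadenylase-like ANGEL2 rose by 0.56 and the exosome subunit EXOSC7 fell by 0.63 (edgeR adjusted p = 0.00484 and 0.000687, from the authors' deposited table). ZNF598, a ubiquitin ligase that senses collided ribosomes, fell by 0.32 there (edgeR adjusted p = 0.032 in the authors' deposited table). ANGEL2 and ZNF598 were also called in the double knockout, at 0.41 and -0.37 (edgeR adjusted p = 0.0199 and 0.00242, from the authors' deposited table). EXOSC7 was at -0.29 there, not called. In the AGO2 knockout ANGEL2, EXOSC7 and ZNF598 were at 0.40, -0.43 and -0.17, not called.

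Among the 13 exosome genes, 1 was called higher in the double knockout (7.69%, beside 22.9% of all genes) and 6 lower (46.2%, beside 20.1% of all genes), with a median log2 fold change of -0.29. DIS3L, the cytoplasmic exosome nuclease, fell by 0.52 (the authors' deposited table, edgeR adjusted p = 6.61e-06). Of 5 further nonsense-mediated decay genes 3 were called higher there (60%, beside 22.9% of all genes), among them UPF3A at 0.62 (edgeR adjusted p = 9.02e-06 in the authors' deposited table). The hydrolase NUDT16, which can remove caps, fell by 0.69 (edgeR adjusted p = 5.93e-09 in the authors' deposited table). NUDT3, a related enzyme, was at -0.95, -1.42 and -1.66 in the AGO2, ANKRD52 and double knockouts (edgeR adjusted p = 0.0218, 5.04e-05 and 1.3e-07 in the authors' deposited tables). NUDT3 was weakly expressed, with a mean log2 CPM of 1.87, beside 4.45 for the lowest member. Its implied levels were 6.61, 3.43, 2.47 and 2.09 CPM in the parental, AGO2, ANKRD52 and double knockout groups. A readthrough gene shares the exons of NUDT3, so reads may be assigned to either and the value is uncertain.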

How the data were processed

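Per the labels' protocols, a stranded mRNA kit and a 75 cycle sequencing kit were used. TopHat2 2.0.12, featureCounts 1.4.6, edgeR 3.8.6 and hg19 are named in the submitters' processing notes, with no role or order. The 3 tables hold log2 fold changes and mean log2 CPM made by the authors, likelihood ratios deposited as a score, and p-values with adjusted values as deposited. All list the same 12756 genes. A check recomputed each deposited p-value from its likelihood ratio and the chi-square distribution, and each adjusted value by the Benjamini-Hochberg method over 12756 genes.

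Values per library were not used here, so depth is unknown. Approximate standard errors divide the size of the log2 fold change by the square root of its likelihood ratio, and 95% intervals are normal. Knockouts were compared by subtracting log2 fold changes, taking as variance the average of both squared errors, with a two-sided normal test and adjustment over the 11876 genes at or above 1 in mean log2 CPM. Implied levels assume 4 groups of equal size.

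Members and lists were chosen with earlier results of these data known. Named were members called in any comparison, both genes of each paralog pair, CNOT1, DCP2, XRN1, DDX6, PABPC1 and UPF1, the targeted genes, and per comparison and direction up to 3 other decay genes called with the smallest adjusted p. BTG1, PAN2, PAN3, LSM1, LSM3, LSM5, CNOT4 and other genes outside that rule were added after their values were seen, to complete their groups. Transcripts came from GENCODE release 29 (GRCh38, not the authors' build), matched by symbol or synonym for 45 of 45 members. Protein identity of paralogs was not analysed here. Alternatives were thresholds of 0.01 and 0.1, F and t references, centring, a level filter and another variance. Scripts ran in Python 3.11.15 with scipy 1.17.1, numpy 2.4.6 and pandas 2.3.3.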

Additional observations from a re-analysis of the deposited data

How the results depend on the processing

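Numbers of members called depended most on the reference distribution and the threshold. Under an F reference with 1 and 8 degrees of freedom applied to the edgeR likelihood ratios, the counts went from 4 to 0 in the AGO2 knockout, 3 to 0 in the ANKRD52 knockout and 14 to 9 in the double knockout. Members at an unadjusted F p under 0.05 numbered 7, 6 and 14 (15.6%, 13.3% and 31.1%, beside 14.4%, 19.4% and 42.8% of all genes). Over all genes the F reference left 0, 3 and 3784 calls, and the calls it ended in the double knockout were CNOT8, CNOT10, TOB2, EDC4 and LSM14A. With an adjusted p under 0.01 the AGO2 knockout had 2 members called (4.44%, beside 2.15% of all genes), and with one under 0.1 the ANKRD52 knockout had 5 (11.1%, beside 18.5%). Between knockouts, the t distribution with 8 degrees of freedom left 4 of 8 for the double against ANKRD52, 0 of 2 for ANKRD52 against AGO2 (3 at an unadjusted p under 0.05) and 7 of 14 for the double against AGO2, and an adjusted p under 0.01 left 5, 1 and 9. Over the 11876 genes the t reference left 2466, 0 and 3410 calls, and the stricter threshold 2903, 525 and 3690. Centring on the median of all genes, a level filter and the larger variance kept these counts within 1.5 times, and no named member reversed its direction. With the filter CNOT4 was also called in the AGO2 knockout. No paired analysis was possible because the tables hold no value per library, and leaving out a replicate was not run for the same reason.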
